A study of Mus musculus with 15 samples.

Results

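Hexim1 and 9 other genes of the machinery that releases paused RNA polymerase II were examined in mouse whole blood after dosing with ABBV-075, a compound (mivebresib) that blocks BET bromodomains. The genes were Hexim1, Cdk9, Ccnt1, Ccnt2, Larp7, Mepce, Aff1, Aff4, Cdk12 and Cdk7, and their members were all probe sets annotated with 1 of these symbols alone, 34 of the 34945 probe sets that carry a single gene name. The study dosed 3 groups of 5 mice with vehicle, 1 mg/kg ABBV-075 or 5 mg/kg ABBV-075, and took whole blood from each at 6 h for total RNA and 1 Affymetrix mouse array per mouse. Its stated purpose was to find blood markers that respond to the compound. Strain, sex, age and route of dosing are not given in the sources used here. Whole blood mixes many cell types, so that for every gene below, fewer cells of a type and less RNA per cell cannot be told apart.

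P-TEFb is the kinase Cdk9 bound to cyclin T1 or cyclin T2, and it phosphorylates RNA polymerase II, NELF and DSIF so that a polymerase held near the promoter can elongate. Much of the cell's P-TEFb is kept inactive on the 7SK RNA, where Hexim1 blocks the kinase, Larp7 holds the RNA and Mepce caps it. BET proteins help bring P-TEFb to chromatin, and the scaffold proteins Aff1 and Aff4 build it into the super elongation complex. Transcripts of Hexim1 are widely used as a readout of BET inhibition.

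The promoters of the inhibitor Hexim1, the only one of the genes with a called probe set, and of the kinase Cdk9 are shown because of the 9 genes with a window, the first alone carries a TATA-like match. They come from RefSeq (GRCm38.p6), run 5′ to 3′ on the gene's strand from 250 bases before to 50 bases after the annotated start, and carry in capitals each match to TATANAA, where N is any base. The Hexim1 window lies at chr11:103116075-103116374 on the plus strand and the Cdk9 window at chr2:32712735-32713034 on the minus strand.
Hexim1: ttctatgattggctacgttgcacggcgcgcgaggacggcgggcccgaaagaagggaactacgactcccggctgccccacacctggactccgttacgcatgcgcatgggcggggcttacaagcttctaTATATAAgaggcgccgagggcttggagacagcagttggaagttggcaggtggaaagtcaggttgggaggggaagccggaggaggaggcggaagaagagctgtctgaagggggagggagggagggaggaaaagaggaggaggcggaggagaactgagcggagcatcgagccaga
Cdk9: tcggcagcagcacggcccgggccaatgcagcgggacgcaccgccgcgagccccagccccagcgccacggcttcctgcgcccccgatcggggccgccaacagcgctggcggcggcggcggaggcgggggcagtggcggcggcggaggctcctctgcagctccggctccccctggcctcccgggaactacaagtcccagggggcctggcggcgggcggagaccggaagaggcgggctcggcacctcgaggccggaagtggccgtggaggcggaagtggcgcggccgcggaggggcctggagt
The table held 10 windows for 9 of the 10 genes, with 2 for Aff1. On the gene's own strand, Hexim1 alone among these windows had TATANAA, beginning 123 bases before the annotated start, and 7.2% of all 32851 windows in the table had it. Searched on both strands, GGGCGG (the GC box) was in 9 of the 10 windows and in 35.7% of all. GGGCGG holds only G and C, and the 10 windows were 54% (Cdk7) to 79% (Aff4) G or C, beside a median of 52.7% over all. The 2 shares are therefore not from windows of like base content. CCAAT was in the windows of Hexim1, Cdk9, Ccnt2 and Larp7 and in 37.4% of all. The cyclic AMP element TGACGTCA was found in Larp7 alone (1.79% of all windows) and the E-box CACGTG in Aff4 and Cdk7 (7.15% of all). The motifs did not overlap each other in the Hexim1 window. These are matches of letters and say nothing of binding.

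The deposited intensities were not on a common scale, with array medians of 3.61 to 25.4, and were quantile normalised. Values below are log2 normalised intensities, with everything under an intensity of 16 set to that floor, which is 4 on the log2 scale. Of the 34 probe sets 21 exceeded the floor on at least 5 of 15 arrays and were tested, within 24273 tested probe sets in all. The remaining 13 were 6 that lay at the floor on every array and 7 that exceeded it on 1 to 4 arrays, and the highest of their values was 5.40 (Larp7 1429558_a_at). All 10 genes had at least 1 tested probe set. The array of 1 mg/kg replicate 1 stood apart with the lowest median, so comparisons with 1 mg/kg were also made without it. Levels of different probe sets cannot be compared with each other.

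Hexim1 rose at 5 mg/kg in its dimmer probe set, 1419359_at, the only member probe set called in any comparison. The deposited intensities of this probe set were -1.72, -10.5, 1.69, 0.038 and -2.20 with vehicle, 1.79, 31.2, 18.6, 56.7 and 21.4 at 1 mg/kg, and 35.7, 53.6, 53.9, 83.9 and 75.2 at 5 mg/kg. Signal was thus near or below 0 in every vehicle blood, and clearly above it in every blood at 5 mg/kg. After normalisation the log2 values were 4.00 on all 5 vehicle arrays, the floor, then 4.00, 4.75, 4.46, 4.97 and 4.39 at 1 mg/kg, and 4.99, 5.29, 6.71, 5.93 and 6.39 at 5 mg/kg. The 5 mg/kg arrays lay above all vehicle arrays and above all 1 mg/kg arrays, although the margin to the highest 1 mg/kg array was narrow. In the deposited intensities the doses overlapped, with 56.7 at 1 mg/kg above 35.7, 53.6 and 53.9 at 5 mg/kg. Above the floor were 4 of 5 arrays at 1 mg/kg and 0 of 5 with vehicle.

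In Hexim1 1419359_at, 5 mg/kg gave a log2 difference from vehicle of 1.86 ± 0.29 (SE, n = 5 per group; limma adjusted p = 0.0127), which ranked 16 by p among 24273 probe sets. Because vehicle was at the floor this is a bound, at least 3.63-fold higher at 5 mg/kg. The floor also made the vehicle SD 0, against 0.72 at 5 mg/kg. That 0 enters the pooled estimate, so the SE, p and rank do not measure spread among vehicle mice. The probe set passed the filter through treated arrays alone. It was the 1 of 21 member probe sets past an adjusted p of 0.05, where 0.136% of all tested probe sets passed in either direction, 0.0453% as higher and 0.0906% as lower. The log2 difference at 1 mg/kg was 0.52 ± 0.29 (SE; limma adjusted p = 0.877), which also depends on the floor that holds every vehicle array and 1 of the 1 mg/kg arrays. It was 1.32 with a floor of 8 (adjusted p = 0.709) and 1.17 on the log2 scale of the value plus 16 (adjusted p = 0.286). The difference of 5 mg/kg over 1 mg/kg was 1.34 ± 0.29 (adjusted p = 0.36). Some alternatives ended the call. Without 5 mg/kg replicate 5 the log2 difference was 1.74 with an adjusted p of 0.0528. The 18S ribosomal RNA signal, taken from the deposited intensities without normalisation, was lower on all 5 mg/kg arrays (log2 8.83 to 9.88) than on the vehicle arrays (10.24 to 12.31). All 9 monocyte markers were lower at 5 mg/kg. With 18S as a covariate the Hexim1 difference was 1.77 with an adjusted p of 0.437. Because 18S did not overlap between these groups, that covariate and the dose cannot be told apart. Without scaling between arrays the Hexim1 difference was 1.86 with an adjusted p of 0.158. With a floor of 8 it was 2.86 (adjusted p = 0.00399), and with a floor of 32 the probe set was not tested.

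**Figure D1:**
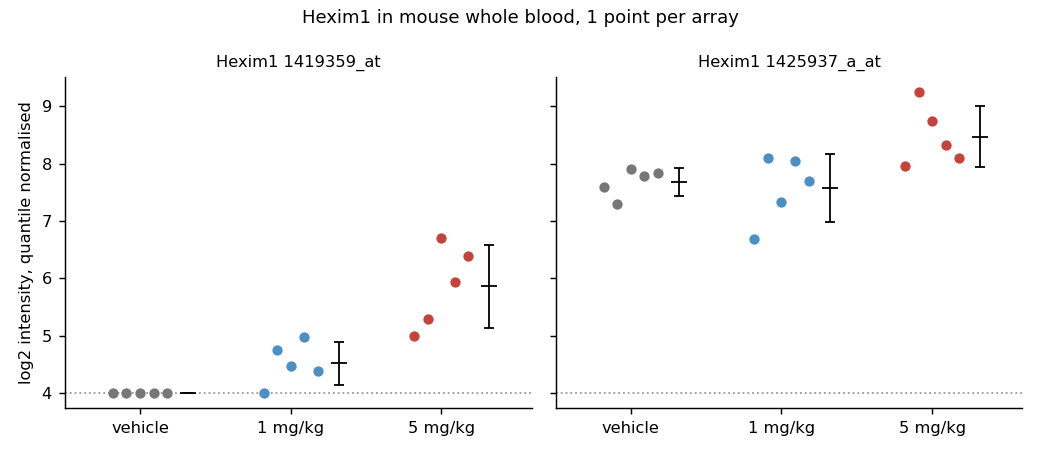
Log2 quantile-normalised intensity of the 2 Hexim1 probe sets on each array by dose (points), with the mean and SD of each group beside them and the floor of 4 as a dotted line. In 1419359_at all vehicle arrays sit at the floor and all 5 mg/kg arrays at 4.99 or above, and in 1425937_a_at the 5 mg/kg arrays lie at 7.95 or above and the vehicle arrays at 7.90 or below.

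The brighter Hexim1 probe set, 1425937_a_at, was above the floor in every blood and differed less between groups. Its log2 values were 7.60, 7.30, 7.90, 7.79 and 7.84 with vehicle, 6.68, 8.10, 7.34, 8.05 and 7.71 at 1 mg/kg, and 7.95, 9.25, 8.74, 8.32 and 8.11 at 5 mg/kg. The 5 mg/kg arrays again lay above all vehicle arrays, the lowest of them by a small margin, but they overlapped the 1 mg/kg arrays. The log2 difference of 5 mg/kg from vehicle was 0.79 ± 0.29 (SE; 95% interval 0.17 to 1.41; 1.73-fold; adjusted p = 0.443), and it passed under 0 of 31 alternatives. It was -0.11 ± 0.29 at 1 mg/kg (adjusted p = 0.974), turning to 0.11 without 1 mg/kg replicate 1. Averaged over both probe sets, Hexim1 stood at 1.32 ± 0.24 for 5 mg/kg against vehicle, past the threshold in a fit of gene means (adjusted p = 0.0373). That average includes the dimmer probe set, which had every vehicle array at the floor and passed the filter through treated arrays alone. The SE and adjusted p of the gene mean therefore hold no spread of the dimmer probe set among vehicle mice. They are not evidence separate from its call. A fit that kept each gene's probe set of highest mean called none of the 10 genes.

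The probe sets of Hexim1 both had higher mean values at 5 mg/kg than with vehicle, and the dimmer one differed more. Set against each other on the same array, the dimmer minus the brighter probe set changed by 1.07 at 5 mg/kg (exact two-sided permutation p = 0.0556 over 252 splits; adjusted p = 0.381 over 30 tests) and by 0.63 at 1 mg/kg (exact permutation p = 0.0238; adjusted p = 0.317). The size of this gap follows the floor: at 5 mg/kg it was 2.07 with a floor of 8 and 0.073 with a floor of 32.

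Mepce, the enzyme that caps 7SK RNA, was the other gene whose tested probe sets both separated 5 mg/kg from vehicle after normalisation, without passing the threshold. Its probe set 1424288_at read 6.52, 5.44, 6.24, 6.01 and 5.49 with vehicle, 6.49, 7.04, 5.69, 7.06 and 6.15 at 1 mg/kg, and 7.05, 6.96, 6.87, 7.0 and 6.98 at 5 mg/kg. After normalisation all 5 mg/kg arrays lay above all vehicle arrays and close together, while the 1 mg/kg arrays spread over both. In the deposited intensities the groups overlapped, with 60.4 for 5 mg/kg replicate 3 and 41.1 to 97.0 with vehicle. The log2 difference from vehicle was 1.03 ± 0.27 at 5 mg/kg (SE; 95% interval 0.45 to 1.61; adjusted p = 0.213) and 0.55 ± 0.27 at 1 mg/kg (adjusted p = 0.871). The brighter 1420140_at read 6.84, 7.11, 6.93, 6.95 and 7.13 with vehicle, 7.37, 7.28, 6.88, 6.65 and 7.31 at 1 mg/kg, and 7.30, 7.32, 7.20, 7.30 and 7.31 at 5 mg/kg. There the normalised 5 mg/kg arrays also lay above the vehicle arrays, by 0.30 ± 0.17 on average (adjusted p = 0.729). Its deposited intensity for 5 mg/kg replicate 3, 76.5, was below all vehicle arrays (99.7 to 130.3). The change of the dimmer over the brighter probe set at 5 mg/kg was 0.74 (exact permutation p = 0.0317; adjusted p = 0.317). The third probe set, 1449747_at, listed under the same sequence record as 1420140_at, exceeded the floor on 1 array.

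Both tested probe sets of Hexim1 and both of Mepce made up the 4 of 21 member probe sets whose normalised 5 mg/kg arrays all exceeded the vehicle arrays. Of all tested probe sets 1.29% did so. The separation of the Mepce probe sets was absent from the deposited intensities. In the other direction 0 of 21 separated, against 1.15% of all tested. Probe sets of a gene are not independent, and Hexim1 was known from an earlier account of these arrays.

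Larp7, the protein that keeps the 7SK complex together, had a negative difference where Hexim1 and Mepce had positive ones. Its probe set 1428310_at ran from 4.82 to 6.03 with vehicle (median 5.98), from 5.38 to 5.67 at 1 mg/kg (median 5.43) and from 4.78 to 5.86 at 5 mg/kg (median 5.26). These ranges overlapped, and the log2 difference of 5 mg/kg from vehicle was -0.45 ± 0.26 (SE; 95% interval -1.0 to 0.11; adjusted p = 0.739). The other Larp7 probe set was above the floor on 3 arrays and was not tested.

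The kinase and the cyclins of P-TEFb itself gave no call. Cdk9, the kinase, read 7.29, 7.95, 7.50, 7.46 and 7.05 with vehicle, 7.08, 7.77, 7.49, 7.48 and 6.33 at 1 mg/kg, and 7.58, 7.59, 8.26, 8.25 and 7.96 at 5 mg/kg in its brighter probe set, 1417269_at. The 5 mg/kg arrays lay in the upper part of the vehicle range or above it, and the groups overlapped. The log2 difference was 0.48 ± 0.27 at 5 mg/kg (SE; 95% interval -0.09 to 1.04; adjusted p = 0.718) and -0.22 ± 0.27 at 1 mg/kg (adjusted p = 0.942). In its dimmer probe set, 1457240_at, the difference at 5 mg/kg was 0.06 ± 0.22 (95% interval -0.41 to 0.52).

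Cyclin T1 (Ccnt1), a main partner of Cdk9, ran in 1456477_at from 5.72 to 6.60 with vehicle, from 5.18 to 6.69 at 1 mg/kg and from 6.23 to 7.03 at 5 mg/kg. The 5 mg/kg difference from vehicle was 0.27 ± 0.28 (SE; 95% interval -0.32 to 0.86; adjusted p = 0.886). Cyclin T2 (Ccnt2), the alternative partner, had 3 tested probe sets of 5. The brightest of them, 1453399_at, ran from 6.00 to 6.49 with vehicle, from 5.31 to 6.47 at 1 mg/kg and from 6.08 to 6.95 at 5 mg/kg. It differed from vehicle by 0.30 ± 0.22 at 5 mg/kg (adjusted p = 0.811). The difference of 5 mg/kg from 1 mg/kg was 0.65 ± 0.22 (adjusted p = 0.461). The other tested Ccnt2 probe sets gave -0.01 (1452297_at) and 0.36 (1427088_at) at 5 mg/kg, the second from values at the floor on 9 of 15 arrays (0.56 with a floor of 8), and both are listed under a single sequence record.

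**Figure D2:**
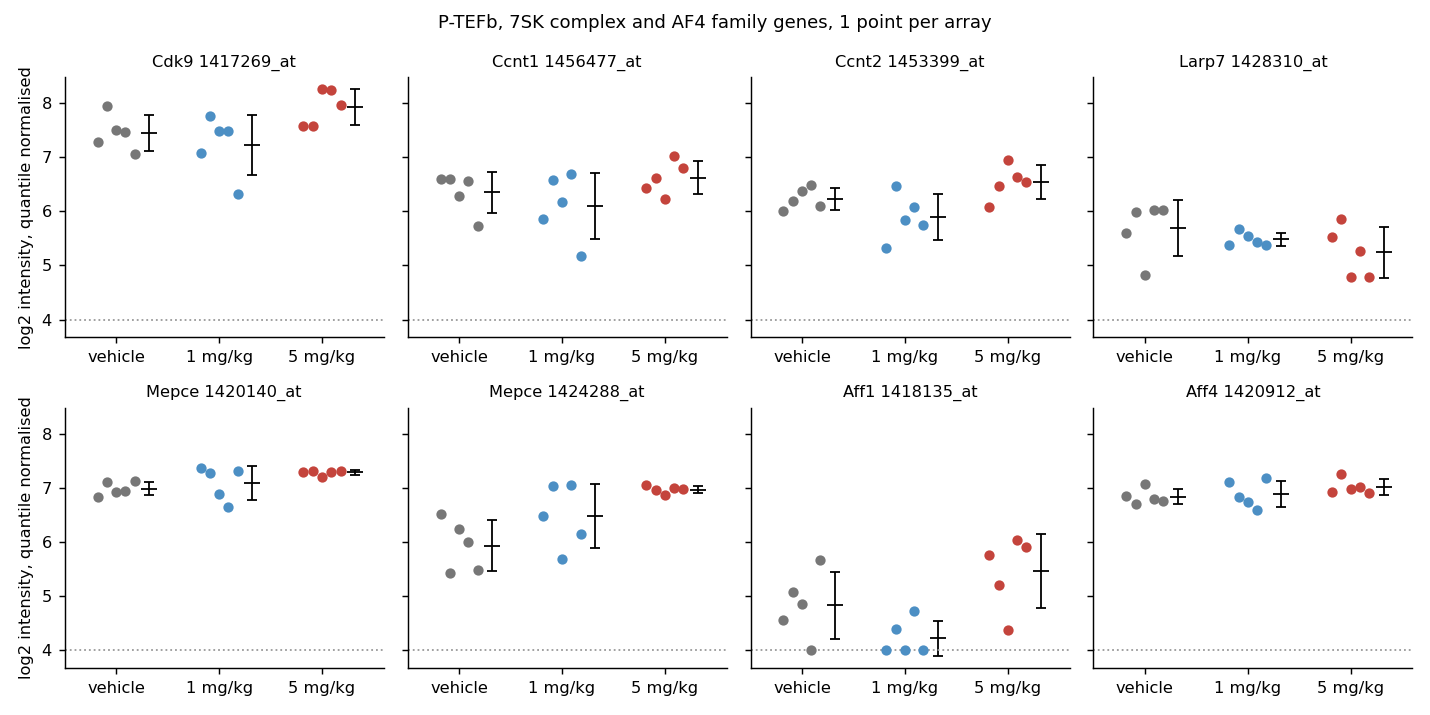
Log2 quantile-normalised intensity on each array by dose (points), with mean and SD beside each group and the floor of 4 dotted, for the brightest probe set of Cdk9, Ccnt1, Ccnt2, Larp7, Aff1 and Aff4 and both tested probe sets of Mepce. The 5 mg/kg arrays of Mepce 1424288_at lie between 6.87 and 7.05, above the vehicle arrays at 5.44 to 6.52, those of Mepce 1420140_at also lie above vehicle, and the other genes overlap between groups.

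Among the scaffolds of the super elongation complex, Aff1 and Aff4 1450031_at gave larger but more variable differences at 5 mg/kg than the other Aff4 probe sets. Aff1 read 4.55, 5.08, 4.86, 4.00 and 5.67 with vehicle, 4.00, 4.39, 4.00, 4.72 and 4.00 at 1 mg/kg, and 5.77, 5.20, 4.38, 6.05 and 5.91 at 5 mg/kg in 1418135_at, its only tested probe set. The floor held 3 of 5 arrays at 1 mg/kg, and the 5 mg/kg arrays were the highest as a group without separating from vehicle. The log2 difference from vehicle was 0.63 ± 0.34 at 5 mg/kg (SE; adjusted p = 0.695) and -0.61 ± 0.34 at 1 mg/kg (adjusted p = 0.876). Between the doses it was 1.24 ± 0.34 (95% interval 0.53 to 1.96; adjusted p = 0.401). These Aff1 values depend on the floor. Between the doses the difference was 1.84 with a floor of 8 and 0.59 with a floor of 32, and at 1 mg/kg against vehicle it was -1.01 and -0.15 with these floors. Aff4, the scaffold that contacts cyclin T1 directly, had 3 tested probe sets. At 5 mg/kg they gave 0.18 ± 0.17 (1420912_at; 95% interval -0.17 to 0.53), 0.81 ± 0.39 (1450031_at) and -0.16 ± 0.26 (1458959_at), with adjusted p of 0.866, 0.639 and 0.937. The first and second of these are listed under the same sequence record, and the third had the opposite sign.

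The other transcription kinases showed no shared direction. Cdk7, the TFIIH kinase that phosphorylates the polymerase tail and activates Cdk9, ran in its brightest probe set, 1435299_at, from 6.53 to 7.25 with vehicle, from 6.78 to 7.48 at 1 mg/kg and from 6.00 to 7.54 at 5 mg/kg. The 5 mg/kg difference was 0.04 ± 0.27 (SE; 95% interval -0.52 to 0.60; adjusted p = 0.99). The dimmer Cdk7 probe set 1458987_at gave -0.58 ± 0.32 (adjusted p = 0.705). Cdk12, the elongation kinase that pairs with cyclin K, had 3 tested probe sets of 7, giving -0.60 ± 0.49 (1440858_at), 0.44 ± 0.30 (1455567_at) and -0.58 ± 0.22 (1425556_at) at 5 mg/kg, with adjusted p of 0.838, 0.795 and 0.445. In 1425556_at the 5 mg/kg arrays were all at the floor and the vehicle arrays ran from 4.00 to 5.42, so that this value is limited by the floor. Each of the 4 other Cdk12 probe sets was at the floor on at least 13 of 15 arrays.

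Across the 21 tested member probe sets, 14 were higher and 7 lower at 5 mg/kg than with vehicle, and the median log2 difference was 0.27, beside -0.01 over all tested probe sets, of which 49.2% were above 0. At 1 mg/kg 10 were higher and 11 lower, with a median of -0.01 beside -0.02 over all, of which 47.3% were above 0. At an unadjusted p under 0.05, 3 were higher and 1 lower at 5 mg/kg (Hexim1 in both probe sets and Mepce 1424288_at, against Cdk12 1425556_at), where 4.27% and 3.69% of all tested probe sets were and 7.96% in either direction. Between the doses 6 were higher and 1 lower at 5 mg/kg than at 1 mg/kg at an unadjusted p under 0.05, where 6.19% and 2.47% of all were and 8.66% in either direction. The 6 were the pair of Hexim1 probe sets, Cdk9 1417269_at, Ccnt2 1453399_at, Aff1 1418135_at and Aff4 1450031_at, and the lower one was Cdk12 1440858_at. At the adjusted threshold 0 of 21 passed between the doses (0% of all tested) and 0 of 21 at 1 mg/kg against vehicle (0.00824% of all tested), where limma gave 0 members higher and 1 lower, Cdk12 1425556_at, at an unadjusted p under 0.05 (2.04% and 3.77% of all, 5.8% in either direction). Groups separated without overlap in 1 of 21 between the doses, Hexim1 1419359_at, which was higher at 5 mg/kg (1.03% of all higher, 0.235% lower), and in 0 of 21 at 1 mg/kg against vehicle (0.19% higher, 0.676% lower). The separation of Hexim1 1419359_at between the doses was narrow and was absent from the deposited intensities. The 3 comparisons share arrays, so their values are not independent.

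The group means were ordered from vehicle through 1 mg/kg up to 5 mg/kg in 5 of the 21 probe sets, which were Hexim1 1419359_at, both of Mepce, Aff4 1420912_at and Cdk12 1455567_at. In 8 probe sets, among them those named for Cdk9, Ccnt1 and Aff1 and the brighter one of Hexim1, the mean at 1 mg/kg was below vehicle and that at 5 mg/kg above it. The share of all tested probe sets with each order was not counted. These counts therefore describe the members only and do not show a response to dose. Of the 21 intervals for 5 mg/kg against vehicle, 17 included 0.

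**Figure D3:**
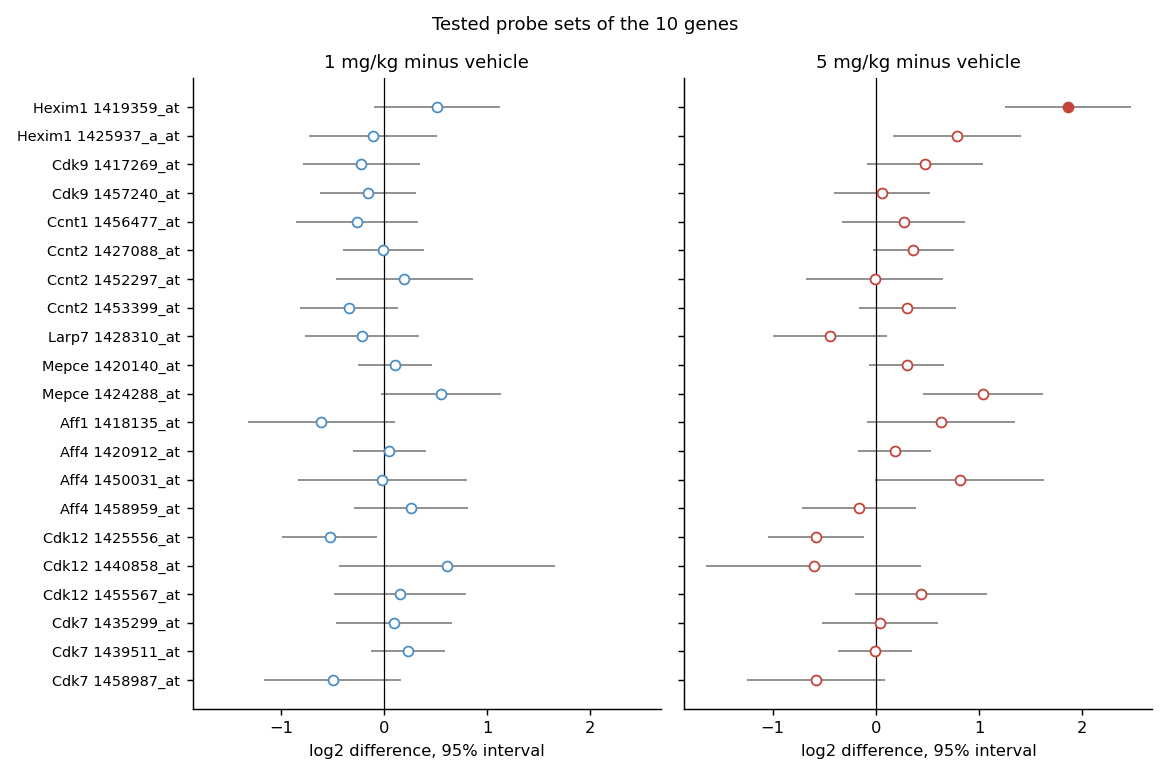
Log2 difference of 1 mg/kg from vehicle (left) and of 5 mg/kg from vehicle (right) for the 21 tested probe sets, with 95% intervals from limma, filled where the adjusted p is under 0.05. Hexim1 1419359_at at 5 mg/kg, at 1.86, is the only filled point.

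Probe sets of a gene often differed in sign. Among the 15 pairs of tested probe sets of the same gene, 7 had the same sign at 5 mg/kg and 6 at 1 mg/kg. The within-array difference of a pair changed between dose and vehicle at an unadjusted exact p under 0.05 in 2 pairs at 5 mg/kg and 1 pair at 1 mg/kg, and in 0 after adjustment over 30 tests (lowest adjusted p = 0.317). With 5 arrays a group the smallest exact p is 0.00794, which over 30 tests adjusts to 0.238 for a single pair, so that no fewer than 5 tests could pass together and the design limits what the count of 0 shows. At 5 mg/kg the pairs of Hexim1, Cdk9 and Mepce each agreed in sign and the other agreeing pairs were 1 each of Ccnt2, Aff4, Cdk12 and Cdk7.

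**Figure D4:**
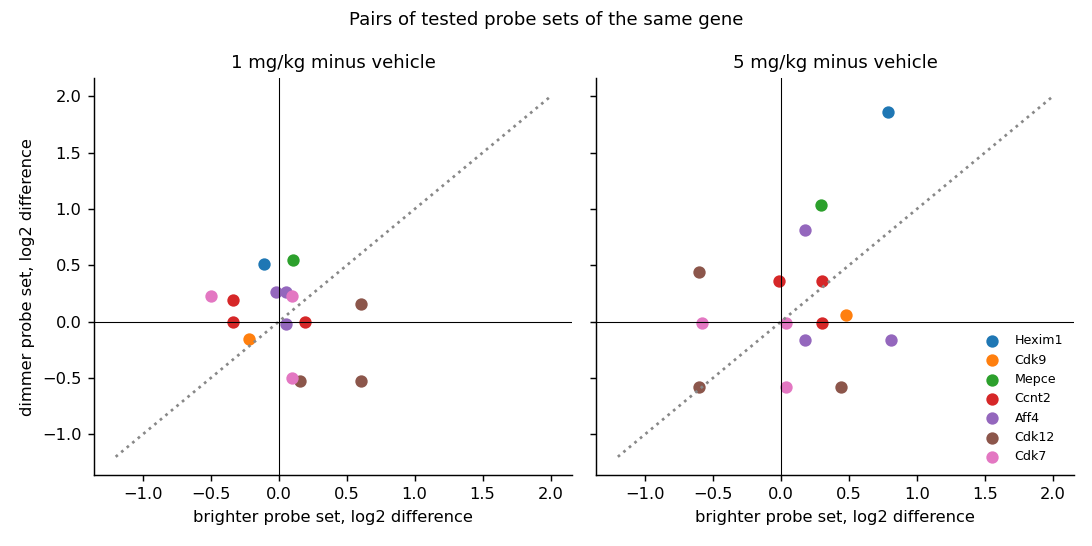
Log2 difference from vehicle of the dimmer (vertical) against the brighter (horizontal) probe set for the 15 pairs from 7 genes, at 1 mg/kg (left) and 5 mg/kg (right), with the line of equal change dotted. The Hexim1 pair at 5 mg/kg, at 0.79 and 1.86, and the Mepce pair, at 0.30 and 1.03, lie above the line, and many other pairs fall in quadrants of opposite sign.

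Other genes of the elongation pathway were taken as 7 lists of 71 genes, of which 54 were tested by their brightest probe set. At 5 mg/kg 1 rose, 0 fell and 35 (64.8%) lay above 0, with a median of 0.10. Of all 12523 genes counted the same way 5 rose, 9 fell and 46.6% lay above 0, with a median of -0.03. For the brightest probe sets of the 10 genes themselves, 8 lay above 0 and the median was 0.28. At an unadjusted limma p under 0.05, 5 of the 54 were higher and 2 lower at 5 mg/kg (13%), beside 7.92% of all genes in either direction. Of the 54, 0 passed in either direction at 1 mg/kg by limma, and 3 (5.56%) had an unadjusted p under 0.05, near the 6.16% of all genes. Between the doses 6 were higher and 0 lower at that unadjusted threshold (11.1%), beside 8.09% of all genes. The 7SK RNA was not analysed here.

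The gene that rose was Brd2, a BET protein and target of the compound, at 1.26 ± 0.23 (SE, n = 5 per group; adjusted p = 0.0447) in 1437210_a_at and 1.31 ± 0.35 (adjusted p = 0.217) in 1423502_at. The log2 difference in 1437210_a_at was 1.13 to 1.40 under 31 alternatives, chosen for Brd2 after its value was seen, and passed in 12. It did not pass without scaling (adjusted p = 1) or with the 18S covariate (adjusted p = 0.442), and when arrays were left out in turn it passed in 3 of 15. Brd3 was at -0.20 ± 0.36, with its other probe sets at 0.29 and -0.23, and Brdt at 0.27 ± 0.27. Among 7SK partners, 7 of 10 tested lay above 0 (median 0.27). Hnrnpa2b1, an RNA-binding protein found on 7SK RNA released from P-TEFb, was at 0.99 ± 0.21 (adjusted p = 0.101) with its 5 mg/kg arrays all above vehicle, and its probe sets 1434047_x_at and 1433830_at were at 0.95 and 0.81, but the fourth, 1420365_a_at, was at -0.83 ± 0.19. The splicing factor Srsf2 was at 0.66 ± 0.30 and the phosphatase subunit Ppp1ca at 0.39 ± 0.22, while Hexim2, the paralogue of Hexim1, was too dim to test.

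The remaining lists held 0 genes past the threshold. In the super elongation complex 4 of 8 lay above 0 (median -0.02), with the AF4 relative Aff3 at -0.67 ± 0.27 (SE; 0.11 in its other probe set), the ELL-associated factor Eaf2 at 0.49 ± 0.21 and the elongation factor Ell2 at -0.29 ± 0.35. Among the pausing factors NELF and DSIF and their partners 6 of 9 lay above 0 (median 0.10), with the NELF subunits Nelfa at 0.63 ± 0.32 and Nelfb at 0.54 ± 0.44. In the PAF complex 4 of 5 did (median 0.02), Cdc73 being at 0.95 ± 0.62 in 1 probe set and at 0.21 and -0.68 in its others. Among other transcription kinases and cyclins 5 of 8 did (median 0.12). Cyclin L1 (Ccnl1) stood at 0.84 ± 0.36 there with separated groups, and Cdk13, the relative of Cdk12, at -0.76 ± 0.38, while its other tested probe sets were at 0.43 and 0.30. Of RNA polymerase II subunits and tail phosphatases 7 of 11 lay above 0 (median 0.11), with the largest subunit Polr2a at 0.53 ± 0.27 (0.03 in its other probe set). The small phosphatase Ctdsp1 was at -0.45 ± 0.16, with its 5 mg/kg arrays all below vehicle.

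**Figure D5:**
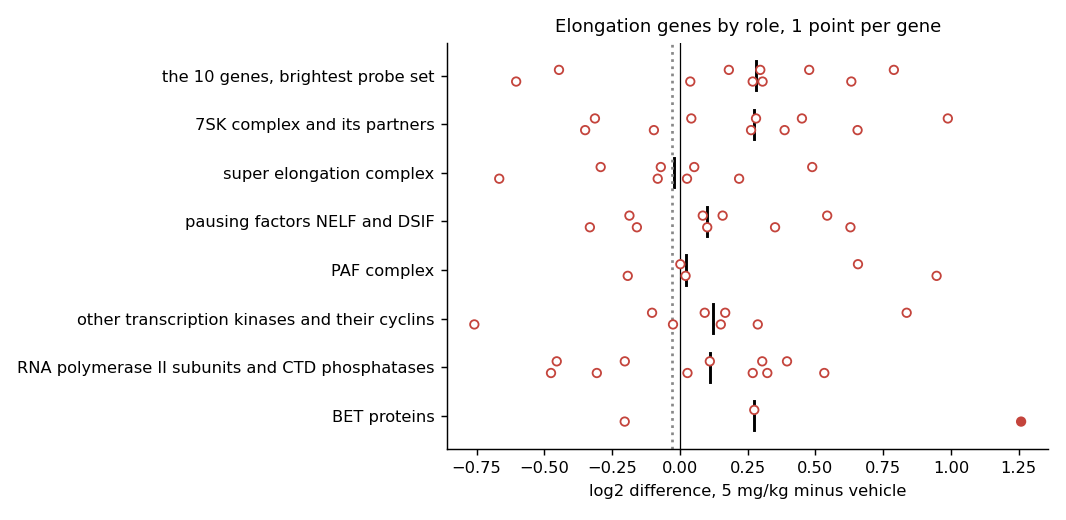
Log2 difference of 5 mg/kg from vehicle for the brightest probe set of each gene (points), by role, with each median as a bar and the median of all 12523 genes (-0.03) dotted; filled points have an adjusted p under 0.05. Brd2, at 1.26, is the only filled point, since the called Hexim1 probe set is not its brightest.

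The genes most like Hexim1 over the 15 arrays were found among 9802 probe sets of named genes of at least median brightness, as a description. For 1419359_at the highest Pearson r were those of the histone gene H2aw (0.93), Hnrnpa2b1 (0.91), Cpne1 (0.90), Marchf7 (0.89) and the replication clamp gene Pcna (0.89). At 5 mg/kg against vehicle these stood at 1.26, 0.95, 0.84, 0.94 and 0.89, and at 1 mg/kg at 0.36, 0.28, 0.12, -0.06 and 0.26. Their positive differences at 5 mg/kg follow from the choice, since the correlation was taken over arrays that include the dose groups. With group means removed, other genes came first, led by Ints6 (0.87), a subunit of the Integrator complex, Lsm10 (0.84) and Gbp2 (0.82). For the brighter 1425937_a_at they were Fem1c (0.85), Zmym5 (0.84), Zfp866 (0.80), Wdr26 (0.79) and, from the 10 genes, Ccnt2 (0.78), and with group means removed Atxn10 (0.90), Enc1 (0.88) and Rngtt (0.86), the mRNA capping enzyme. The Hexim1 probe sets correlated with each other at 0.67 over all arrays and at 0.31 with group means removed. The vehicle arrays of 1419359_at are all at the floor and have no deviation from their mean. Its correlations with group means removed therefore rest on the treated arrays. In these correlations the arrays share the dose groups and the normalisation.

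Markers of blood cell types differed with dose, and their part in the values above was not tested. The blood label was borne out by high erythroid, platelet and leukocyte signals, and no listed marker was at the floor on all arrays. Among erythroid markers Alas2 ran from 13.41 to 13.57 with vehicle, while the haemoglobin gene Hba-a1 ran only from 5.58 to 7.40. All 9 monocyte markers on the array were lower at 5 mg/kg than with vehicle, their summed normalised intensity running from 635 to 878 at 5 mg/kg and from 1298 to 2083 with vehicle. All 7 B cell markers were higher, with sums of 1735 to 3378 at 5 mg/kg and 949 to 2407 with vehicle, and 5 of 6 T cell markers were higher, with sums of 812 to 1825 at 5 mg/kg and 719 to 1159 with vehicle. Neutrophil markers were lower in 8 of 8, with sums of 906 to 3578 at 5 mg/kg and 2388 to 3633 with vehicle. NK cell markers were lower in 6 of 7 (412 to 1784 at 5 mg/kg and 593 to 1208 with vehicle), platelet markers in 7 of 7 (7415 to 10895 at 5 mg/kg and 5760 to 12939 with vehicle) and erythroid markers in 4 of 5 (18792 to 23379 at 5 mg/kg and 21383 to 24189 with vehicle). Lower at 1 mg/kg than with vehicle were 8 of 9 monocyte, 8 of 8 neutrophil, 5 of 7 B cell and 5 of 6 T cell markers. So were 7 of 7 NK cell, 7 of 7 platelet and 4 of 5 erythroid markers. Between 1 mg/kg and vehicle, the median log2 difference was -0.60 for monocyte and -0.31 for B cell markers, and between 5 mg/kg and vehicle it was -1.22 for monocyte and 0.61 for B cell markers. The log2 18S ribosomal RNA signal of the deposited intensities, not normalised, was 9.42 ± 0.42 at 5 mg/kg and 11.19 ± 0.94 with vehicle (SD, n = 5 each), with no overlap.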

How the data were processed

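RNA of 15 whole blood samples, 1 array per mouse, was amplified with an Affymetrix 3' kit per the labels' protocols. The authors' deposited table holds a linear intensity for each probe set, partly below 0, as its values show. Which software made it, and with what summary or scaling, is not given in the sources used here. Precision is limited by the number of arrays.

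After removal of 64 control probe sets the remaining 45037 were quantile normalised, values under 16 were raised to 16, and log2 was taken. The 24273 probe sets above that floor on at least 5 arrays entered 1 model with 3 group means on all 15 arrays, tested two-sided with eBayes of limma 3.58.1 (R 4.3.3). Adjusted p-values are Benjamini-Hochberg over these 24273, with a threshold of 0.05. The platform annotation, which can be old, named a single gene for 34945 probe sets and several genes for 932. Probe sets of a gene were compared by exact two-sided permutation of their within-array log2 difference. Members, pathway lists and cell markers were chosen with earlier results of these data known. Named genes were all members, from each list those past the threshold and up to 3 of smallest p at 5 mg/kg, and the 5 most correlated with each Hexim1 probe set. Genes of a list were counted by their probe set of highest mean. Alternatives covered scaling, floor, filter, probe set choice, fit options, an 18S covariate, the replicate block and leaving out each array. The fitting code was tested on simulated data.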

Additional observations from a re-analysis of the deposited data

Results flagged for a closer look

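In 6 of 61 groups of 5 arrays of the member probe sets, a single array lay far from the other 4 by Dixon's criterion. For normally distributed values chance exceeds it in about 1 in 20 groups. That rate does not hold for groups near the floor. Where 4 arrays are at the floor, any value above it on the other array meets the criterion by construction. For Ccnt2, vehicle replicate 5 was at 5.49 in 1452297_at where the other vehicle arrays ran from 4.96 to 5.06, and in 1427088_at vehicle replicate 3 was at 4.27 where the others were at the floor of 4. For Mepce 1420140_at, 5 mg/kg replicate 3 was at 7.20 where the others ran from 7.30 to 7.32, so that the distance was small and reflects how close the others were. For Cdk7, 5 mg/kg replicate 5 was at 4.03 in 1458987_at where the others ran from 4.95 to 5.07. In Cdk7 1439511_at, 5 mg/kg replicate 5 was at 4.15 and vehicle replicate 2 at 4.21, where nearly all others of each group were at the floor.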

How the results depend on the processing

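The number of member probe sets called at 5 mg/kg against vehicle, 1 with the standard setting, was 0 without scaling between arrays, with a floor of 32, with probe sets above the floor on at least 10 arrays, with 1 probe set a gene and with the 18S covariate. It was 0 to 1 over the runs that left out an array, 0 without 5 mg/kg replicate 5. The Hexim1 1419359_at difference was 1.86 (adjusted p = 0.158) without scaling, 1.77 with the 18S covariate (adjusted p = 0.437) and 1.70 to 2.07 when arrays were left out in turn. Replicate numbers recur in each group but did not pair the mice (same-numbered arrays' deviations correlated at -0.271 to 0.324 between 5 mg/kg and vehicle, and 1 of 5 arrays correlated best with its own number). With the replicate block the difference was 1.86 (adjusted p = 0.0304) and the count of called members 1. Over all 28 alternatives that tested it, 1419359_at kept its sign and was called in 25, and the brighter Hexim1 probe set kept its sign in 31 of 31.

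Signs of values near 0 turned at 5 mg/kg. Ccnt2 1452297_at was 0.30 without scaling, 0.11 with cyclic loess, 0.18 with a floor of 32, 0.059 with array weights and -0.25 to 0.26 on leaving out arrays. Cdk9 1457240_at was -0.015 with cyclic loess and -0.032 to 0.11 on leaving out arrays. Cdk7 1435299_at was -0.18 with the 18S covariate and -0.10 to 0.29 on leaving out arrays, and 1439511_at -0.049 to 0.029. At 1 mg/kg the brighter Hexim1 probe set ran from -0.24 to 0.11 on leaving out arrays, and Cdk9 1417269_at from -0.36 to 0.0048. Causes were not tested.

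Of all tested probe sets, 33 were called at 5 mg/kg, against 4 without scaling (where the median moved to 0.12), 73 with a floor of 32, 11 with 1 probe set a gene, 95 with array weights, 0 with the 18S covariate (limma; 2021 at an unadjusted p under 0.05) and 15 to 41 on leaving out arrays. At 1 mg/kg 2 were called, 10 with a floor of 32 and 7 without 1 mg/kg replicate 2. Probe sets near the floor, such as Hexim1 1419359_at with vehicle, have no measured level below it.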
